A study of Mus musculus with 8 samples.

Results

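The genes of insulin-like growth factor 1 (IGF1), of its receptors and of the IGF binding proteins were followed by name through RNA-seq libraries of mouse bone marrow stroma. The 9 genes, of 49315 in the deposited counts, were Igf1, Igf1r, Igf2r and Igfbp2 to Igfbp7, matched to their Ensembl identifiers by symbol. The study defined clusters 1 to 7 by single-cell RNA-seq of marrow cells positive for Sca-1 and PDGFR-alpha, and then chose surface antigens to sort each cluster from CD31-, CD45- and Ter119-negative cells. From each sorted cluster 1 RNA-seq library was made, and 1 from input bone marrow cells. Per the labels, all 8 samples came from wild type C57BL/6J mice of 6 weeks, with no treatment. The methods of the study instead name C57BL/6JJcl mice and give a wider age range. How many animals were pooled for a library is not stated.

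According to the gating plots of the study, read by eye, the cluster 1 cells were CD24-, CD39+ and Sca-1+. Those of cluster 2 were CD24-, CD39- and Ly-6C-. The gate of cluster 3 was CD24+, CD39-, CD54- and Ly-6C+. Cluster 4 was taken as CD24-, CD54+ and Ly-6C-, and cluster 5 as the same with CD121b- added. Cluster 6 was CD24+, CD39- and Sca-1-, and cluster 7 was CD24-, CD54-, Sca-1+ and Ly-6C-. The extraction protocol in the labels describes crushed marrow and not sorted cells, and Ly6a, which encodes Sca-1, was at 4.98 RPKM (reads counted, scaled to exon length and to the total count of the library) in the cluster 6 library against 590 and 226 in those of clusters 1 and 7. It was at 931, 431, 87.0 and 78.3 RPKM in clusters 3, 4, 5 and 2, whose gates do not name Sca-1, so clusters 3 and 4 lay above the Sca-1+ cluster 7. The libraries of clusters 1 to 7, written c1 to c7 where values are listed, held 24205863, 25349917, 27102715, 32549319, 12833648, 31669132 and 33238133 counts on genes, and the input library held 20162876. Each level below is an RPKM computed from the deposited count, and intervals cover counting error only, because no population had a replicate.

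IGF1 and IGF2 are secreted growth factors that act through the receptor tyrosine kinase IGF1R, whereas IGF2R binds IGF2 and delivers it to lysosomes. Most IGF in tissue fluid is held by IGF binding proteins, which carry the ligand, keep it from the receptor or release it when proteases cut them. In bone, IGF1 supports osteoblast formation and matrix deposition, and marrow stroma secretes both the ligand and several of the binding proteins.

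Composition differed between the libraries before any IGF gene was considered. In the cluster 5 library 34.8% of the counts lay on the loci Rn18s-rs5, Lars2 and mmu-mir-689-2, against 10.4% in cluster 2 and 0.274% in cluster 7, and cluster 5 had the smallest total. Scaling by TMM (trimmed mean of M values, a correction for composition) shifted every log2 level by 0.44 in c5, 0.37 in c6, 0.01 in c2, 0.02 in c3, 0.04 in c4, -0.14 in c1, -0.05 in c7 and -0.68 in the input. Ratios between 2 genes of the same library are free of this scaling. Neutrophil transcripts were also present in every library although CD45-negative cells were sorted, with a summed level of the 6 listed neutrophil genes from 9522 RPKM in cluster 3 to 25949 in cluster 7 and 38783 in the input, led by S100a9. The contribution of other cells to the IGF genes was not tested.

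All 9 genes passed the filter of more than 2 RPKM in at least 1 sorted library, and 5 of them (Igf2r, Igfbp4, Igfbp5, Igfbp6 and Igfbp7) exceeded it in all 7. The highest library exceeded the lowest by more than 2-fold, as a ratio of RPKM + 1, for 8 of 9 genes against 70.6% of the 12360 genes tested, and by more than 4-fold for 6 of 9 against 15.7%. These 6 were Igf1, Igfbp2, Igfbp3, Igfbp4, Igfbp6 and Igfbp7, of which Igfbp7 did not exceed 4-fold with TMM or DESeq2 factors, where 5 of 9 did (14.7% of all genes with TMM factors). The receptor genes Igf1r and Igf2r stayed within a ratio of 1.84 and 2.24. The median log2 of that ratio was 4.03 over the 9 genes, 1.23 over the 37 tested of 50 other genes of the pathway and 1.26 over all genes tested. With TMM factors the medians were 3.72, 1.00 and 1.10. The value of the 9 genes rested on the cluster 6 library, without which the medians were 2.01, 1.14 and 1.18.

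**Figure D1:**
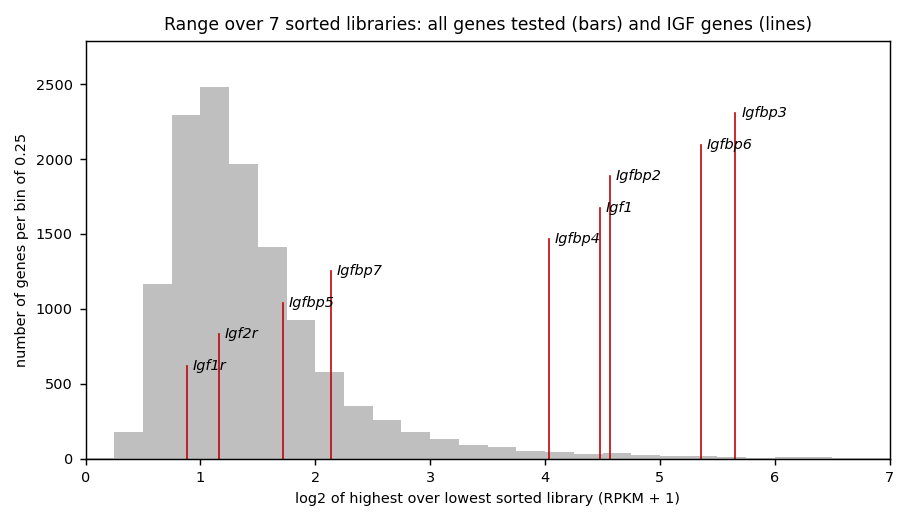
Histogram of the log2 ratio of the highest over the lowest of 7 sorted libraries (RPKM + 1, horizontal axis) with the number of genes per bin on the vertical axis. Bars show the 12360 genes tested and red lines the 9 IGF genes. Igf1, Igfbp2, Igfbp3, Igfbp4 and Igfbp6 lie at 4.03 or above, while Igf1r lies at 0.88, left of the median of all genes.

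Cluster 6 was where most of these genes were lowest. The minimum of the 7 sorted libraries lay in cluster 6 for 8 of 9 genes against 25.5% of all genes tested. With TMM factors it was 6 of 9 against 17% of genes, because the lowest library of Igf1r became cluster 7 and that of Igfbp5 became cluster 2, which then did not differ from cluster 6 beyond counting error. In 4 genes, Igf1, Igfbp3, Igfbp4 and Igfbp6, RPKM + 1 in a single library was below 1/2 of that in each of the other 6, against 3.21% of all genes. That library was cluster 6 each time, where 1.5% of all genes were so depleted. Under TMM factors Igfbp4 left this group, and 3 genes remained against 1.03%. Cluster 4 held the maximum of Igf1, Igfbp3, Igfbp4 and Igfbp7, 4 of 9 against 8.95% of all genes, and 4 of 9 against 10.4% with TMM factors.

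**Figure D2:**
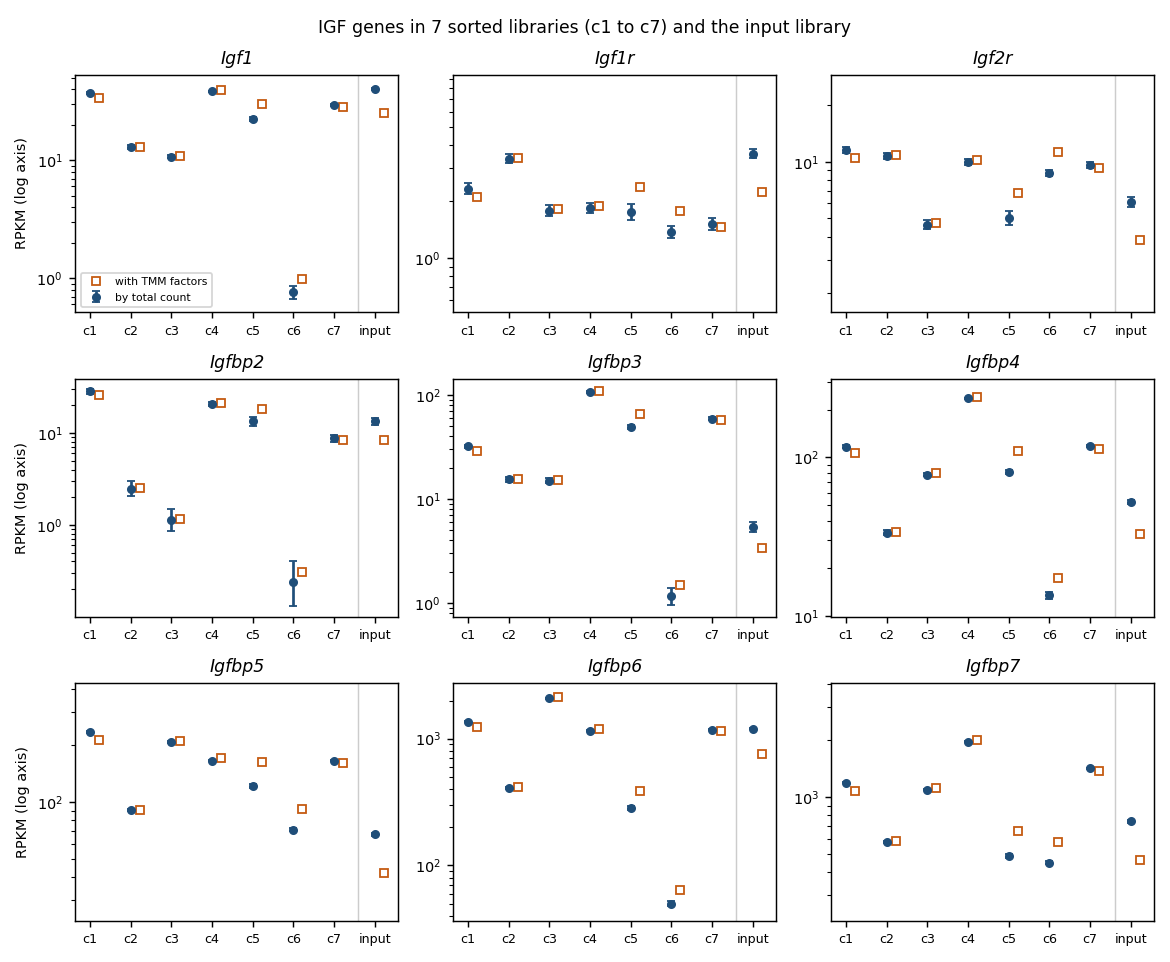
Level of each IGF gene in RPKM on a log axis, by library (c1 to c7 for clusters 1 to 7, then input). Filled circles are scaled by total count with 95% exact Poisson intervals, and open squares carry TMM factors. Igf1, Igfbp2, Igfbp3, Igfbp4 and Igfbp6 drop in c6, whereas Igf1r and Igf2r vary little.

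Igf1 (ENSMUSG00000020053, GRCm38 chromosome 10, 87858265 to 87937042, plus strand) encodes the ligand. Its level was 37.1 RPKM in c1, 12.9 in c2, 10.7 in c3, 38.3 in c4, 22.2 in c5, 0.762 in c6, 29.1 in c7 and 40.1 in the input. Clusters 4 and 1 were thus nearly level at a ratio of 1.03 (95% exact binomial interval 1.00 to 1.06, and 1.17 with TMM factors), clusters 2 and 3 lay lower, and cluster 6 stood far below the rest. The cluster 4 level was 50.3 times that of cluster 6 (44.2 to 57.4), and even cluster 3, the next lowest, was 14.1 times higher than cluster 6 (12.4 to 16.2). The count behind the cluster 6 value was 239, so the interval of its level was 0.668 to 0.865 RPKM. With TMM factors the ratio of cluster 4 to cluster 6 was 40.0. An opposite-strand gene, Gm16176, overlaps the Igf1 locus without sharing exon bases and had at most 10 counts in a sorted library.

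Igf2, the other ligand, had a different profile. It measured 6.03 RPKM in c1, 12.2 in c2, 0.980 in c3, 20.1 in c4, 18.0 in c5, 1.27 in c6, 8.75 in c7 and 2.09 in the input. Cluster 4 was highest by total count and cluster 5 with TMM factors, and cluster 3 was lowest with either scaling. Within a library, the level of Igf1 over that of Igf2 was 10.96 in cluster 3 and 6.15 in cluster 1, close to parity in cluster 2 (1.06) and cluster 5 (1.23), and 0.598 in cluster 6. The input stood at 19.2.

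Igf1r (ENSMUSG00000005533, chromosome 7, 67952827 to 68233668, plus strand) encodes the signalling receptor. It was measured at 2.34 RPKM in c1, 3.38 in c2, 1.79 in c3, 1.84 in c4, 1.76 in c5, 1.38 in c6, 1.52 in c7 and 3.59 in the input. Cluster 2 was highest, at 1.44 times cluster 1 (1.33 to 1.57), and it kept that place under TMM and DESeq2 scaling. The neighbouring pairs clusters 4 and 3, clusters 3 and 5, and clusters 7 and 6 did not differ beyond counting error by total count. With TMM factors cluster 5 was 1.31 times cluster 3 (1.16 to 1.48) and cluster 6 was 1.21 times cluster 7 (1.10 to 1.34). The whole range was 2.45-fold (2.24 to 2.69).

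Igf2r (ENSMUSG00000023830, chromosome 17, 12682406 to 12769664, minus strand), the clearance receptor of IGF2, was the more abundant receptor in all libraries. It stood at 11.6 RPKM in c1, 10.8 in c2, 4.63 in c3, 9.99 in c4, 5.03 in c5, 8.71 in c6, 9.57 in c7 and 6.10 in the input. Clusters 3 and 5 were the low libraries. By total count they did not differ beyond counting error, nor did clusters 4 and 7, but with TMM factors cluster 5 was 1.44 times cluster 3 (1.31 to 1.59) and cluster 4 was 1.11 times cluster 7 (1.05 to 1.17). Igf2r was the only one of the 9 genes whose minimum was not in cluster 6 by total count, and with TMM factors cluster 6 became its highest library. The level of Igf2r over that of Igf1r ran from 2.59 in cluster 3 to 6.32 in c6 and 6.31 in c7, with 1.70 in the input. Airn, an opposite-strand transcript in the same locus, shares no exon bases with Igf2r and had at most 331 counts in a sorted library.

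Set against its receptor, the ligand changed place between libraries. The level of Igf1 exceeded that of Igf1r by 20.8 times in c4, 19.2 in c7, 15.8 in c1, 12.6 in c5, 6.01 in c3 and 3.81 in c2. In cluster 6 the ratio was 0.553, so the receptor transcript was the more abundant one there. The input ratio was 11.2.

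Igfbp2 (ENSMUSG00000039323, chromosome 1, 72824503 to 72852474, plus strand) encodes a binding protein that can also attach to integrins. Its level was 28.3 RPKM in c1, 2.48 in c2, 1.14 in c3, 20.8 in c4, 13.4 in c5, 0.239 in c6, 8.75 in c7 and 13.4 in the input. Clusters 1, 4 and 5 were high and clusters 2, 3 and 6 low, in the same order with TMM factors. Cluster 1 exceeded cluster 4 by 1.36 times (1.26 to 1.47). The ratio of cluster 1 to cluster 6 was 118 (70.1 to 217), a wide interval because the cluster 6 level rests on 14 counts.

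Igfbp5 (ENSMUSG00000026185, chromosome 1, 72857932 to 72874884, minus strand), a binding protein stored in bone matrix, is the neighbour of Igfbp2, and 5.46 kb separate the ends of these genes. It was measured at 236 RPKM in c1, 90.7 in c2, 208 in c3, 166 in c4, 121 in c5, 71.2 in c6, 166 in c7 and 67.3 in the input. All 7 sorted libraries were above the input, by total count and with TMM factors. Clusters 4 and 7 did not differ beyond counting error by total count, and their ratio was 1.06 (1.04 to 1.08) with TMM factors. The range was 3.31-fold (3.25 to 3.38), and with TMM factors 2.34-fold with the minimum in cluster 2. Cluster 3 showed the contrast between these neighbours, since Igfbp5 was second highest there and Igfbp2 second lowest. The level of Igfbp5 over that of Igfbp2 was 183 in cluster 3 and 297 in cluster 6, but 8.34 in c1, 8.002 in c4 and 9.08 in c5.

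The RefSeq promoter sequences (GRCm38.p6) of both are shown because the genes are adjacent but differed in profile. Each run is the 250 bases before the RefSeq start, on the strand of the gene, and the RefSeq starts lie 23 and 19 bases from the deposited gene starts. Capitals mark promoter motifs on either strand. A GC box reads GGGCGG when printed on its own strand. The other motifs were the TATA box, which reads TATAAA here, and the box with the letters CCAAT. The window of Igfbp2, chr1:72824230-72824479 on the plus strand, holds GGGCGG 3 times, has 67.2% GC and 14 CpG. A second RefSeq window of Igfbp2 is not printed. It ends just before the start of another transcript, which lies 884 bases into the deposited gene. This second window holds none of these letters, with 56.4% GC and 11 CpG. That of Igfbp5, chr1:72874866-72875115 on the minus strand, holds none of these letters, with 58.8% GC and 10 CpG.
Igfbp2: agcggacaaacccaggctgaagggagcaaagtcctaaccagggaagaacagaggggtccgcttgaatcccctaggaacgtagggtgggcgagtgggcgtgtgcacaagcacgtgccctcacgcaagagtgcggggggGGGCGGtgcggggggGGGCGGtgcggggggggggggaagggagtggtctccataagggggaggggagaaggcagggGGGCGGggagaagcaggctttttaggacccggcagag
Igfbp5: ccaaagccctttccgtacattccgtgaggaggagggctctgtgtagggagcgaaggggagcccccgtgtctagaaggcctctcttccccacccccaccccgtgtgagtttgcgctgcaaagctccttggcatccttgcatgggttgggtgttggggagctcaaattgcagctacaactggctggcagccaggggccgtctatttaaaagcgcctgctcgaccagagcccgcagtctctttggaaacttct

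Igfbp3 (ENSMUSG00000020427, chromosome 11, 7206086 to 7213923, minus strand) encodes the main IGF carrier of serum. It was at 32.0 RPKM in c1, 15.5 in c2, 15.0 in c3, 108 in c4, 49.0 in c5, 1.16 in c6, 59.5 in c7 and 5.39 in the input. Cluster 4 was highest, at 1.81 times cluster 7 (1.76 to 1.87), clusters 2 and 3 did not differ beyond counting error, and cluster 6 alone lay below the input. The range was 93.0-fold (77.4 to 113), or 74.0-fold with TMM factors, and exceeded that of 99.5% of the genes tested as a ratio of RPKM + 1.

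Igfbp4 (ENSMUSG00000017493, chromosome 11, 99041244 to 99054392, plus strand) encodes a binding protein known as an inhibitor of IGF action until it is cut by the protease PAPP-A. Its level was 117 RPKM in c1, 33.6 in c2, 78.0 in c3, 236 in c4, 81.3 in c5, 13.5 in c6, 118 in c7 and 52.5 in the input. Cluster 4 was again highest and cluster 6 lowest, and clusters 7 and 1 did not differ beyond counting error by total count, whereas with TMM factors cluster 7 was 1.07 times cluster 1 (1.05 to 1.10). The lead of cluster 4 over the next library was 2.01-fold (1.97 to 2.04). As a ratio of RPKM + 1 it did not exceed 2-fold, so none of the 9 genes was specific to a library against 5.4% of all genes, but with TMM or DESeq2 factors Igfbp4 was specific to cluster 4, where 6.1% of all genes were specific to a library with TMM factors.

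Igfbp3 and Igfbp4 lie far apart on chromosome 11 and had the same highest and lowest library. Their promoter windows are shown with the same marks and end at the deposited gene starts. The RefSeq gene records of Igfbp3 and Igfbp4 begin 1575 and 1239 bases further upstream. Igfbp4, chr11:99040994-99041243 on the plus strand, has TATAAA from 28 bases before the start, 69.2% GC and 22 CpG. The Igfbp3 window, chr11:7213924-7214173 on the minus strand, has none of the marked letters, 73.2% GC and 32 CpG.
Igfbp3: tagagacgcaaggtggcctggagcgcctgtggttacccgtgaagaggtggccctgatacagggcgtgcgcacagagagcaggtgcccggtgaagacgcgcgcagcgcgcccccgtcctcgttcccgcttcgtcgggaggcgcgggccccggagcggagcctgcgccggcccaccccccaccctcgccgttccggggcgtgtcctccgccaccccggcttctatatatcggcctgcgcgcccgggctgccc
Igfbp4: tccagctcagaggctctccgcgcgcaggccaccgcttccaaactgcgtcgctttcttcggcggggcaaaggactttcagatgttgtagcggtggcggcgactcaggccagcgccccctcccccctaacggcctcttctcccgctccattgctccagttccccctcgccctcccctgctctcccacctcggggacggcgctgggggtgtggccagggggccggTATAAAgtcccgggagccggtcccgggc

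Over the 10 windows of the 9 genes, read on both strands, the GC box occurred in 4, the CCAAT box in 2 and the TATA box in 2, against 32.7%, 33.8% and 12.4% of all 32851 RefSeq promoter windows of this length. The Runx letters TGTGGT were found in 1 window, that of Igfbp3, against 14.0% of all. The EBF letters CCCNNGGG occurred in 2, those of Igfbp7 and Igf2r, against 11.8%, and the E-box letters CANNTG in 8 against 66.2%. The median window of all genes had 52.4% GC and 6 CpG. These matches are a description of letters.

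Igfbp6 (ENSMUSG00000023046, chromosome 15, 102144362 to 102149511, plus strand) encodes the binding protein that prefers IGF2 over IGF1. It was measured at 1363 RPKM in c1, 411 in c2, 2082 in c3, 1153 in c4, 284 in c5, 49.9 in c6, 1180 in c7 and 1199 in the input. Cluster 3 led, at 1.53 times cluster 1 (1.51 to 1.55), and clusters 2, 5 and 6 were the low libraries. The ratio of cluster 3 to cluster 6 was 41.7 (39.8 to 43.8), and 32.9 with TMM factors. By level, Igfbp6 ranked number 19 among all genes in cluster 3 and number 771 in cluster 6.

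Igfbp7 (ENSMUSG00000036256, chromosome 5, 77349240 to 77408041, minus strand) encodes a related secreted protein that binds IGF only weakly. Its level was 1194 RPKM in c1, 578 in c2, 1097 in c3, 1968 in c4, 487 in c5, 448 in c6, 1421 in c7 and 743 in the input. Clusters 4 and 7 were high and clusters 2, 5 and 6 low. Even in cluster 6 it ranked number 73 among all genes by level, and the range was 4.40-fold (4.32 to 4.47). The gene shares 85 exon bases with Polr2b on the opposite strand, which had at most 2490 counts in a sorted library against at least 7557 for Igfbp7, and whether counting used strand is not given in the sources used here.

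The 6 binding protein genes together held 0.505% of all counts in c1, 0.190% in c2, 0.529% in c3, 0.608% in c4, 0.217% in c5, 0.109% in c6, 0.475% in c7 and 0.291% in the input. Clusters 1, 3, 4 and 7 were thus above the input and clusters 2, 5 and 6 below it. As a summed level with TMM factors, clusters 5 and 6 came to 1401 and 752 RPKM against 1303 in the input, so cluster 5 then lay above the input. Whether a low value reflects fewer cells with the transcript or less of it per cell cannot be told apart in bulk libraries.

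Per exon length, either Igfbp7 or Igfbp6 led in every library. Igfbp6 made up 59.8% of the summed Igfbp level in cluster 3, 45.9% in cluster 1 and 57.6% of that in the input. Igfbp7 led with 76.7% in c6, 53.9% in c4, 51.1% in c2, 48.1% in c7 and 47.0% in c5. The ratio of Igfbp6 to Igfbp7 moved from 1.90 in cluster 3 (1.87 to 1.92) to 0.111 in cluster 6 (0.106 to 0.117), with 0.586 in c4, 0.583 in c5, 0.711 in c2, 0.830 in c7, 1.14 in c1 and 1.61 in the input. The Igfbp6 share in cluster 6, 8.55%, was below that of Igfbp5, 12.2%. Igfbp3 and Igfbp4 had their largest shares in cluster 5, 4.73% and 7.85%, followed by cluster 4 with 2.96% and 6.45%. Without Igfbp7, Igfbp6 led in every library but cluster 6, where Igfbp5 made up 52.4%.

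**Figure D3:**
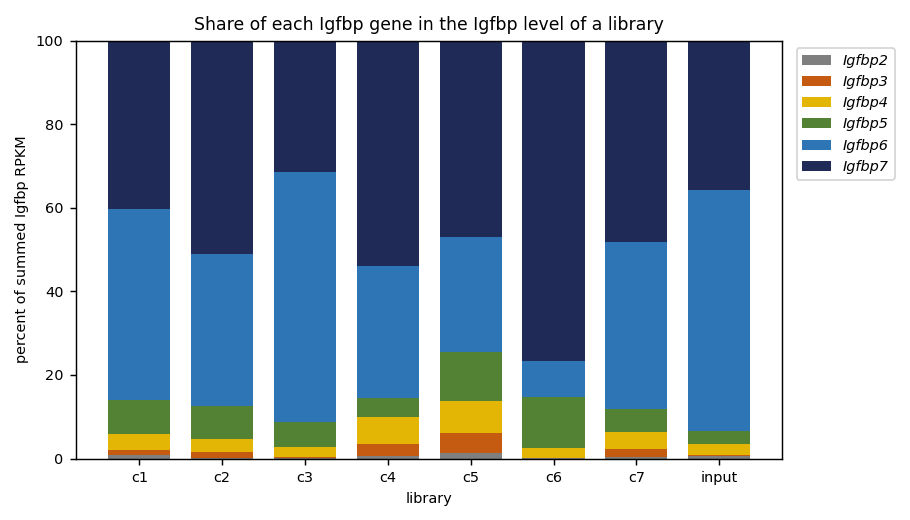
Stacked bars of the percent of the summed Igfbp RPKM that each of Igfbp2 to Igfbp7 contributed, by library (c1 to c7 for clusters 1 to 7, then input). Igfbp6 and Igfbp7 fill most of each bar, with Igfbp7 at 76.7% in c6 and Igfbp6 at 59.8% in c3.

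The binding proteins can also be read against the ligand. The level of Igfbp3 over that of Igf1 was 0.863 in c1, 1.20 in c2, 1.39 in c3, 2.82 in c4, 2.21 in c5, 1.52 in c6 and 2.04 in c7, against 0.134 in the input. All 7 sorted libraries exceeded the input in this ratio, which no scaling changes.

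Compared with the input, none of the 9 genes was more than 2-fold higher in all 7 sorted libraries, where 0.728% of all genes were, and none was below 1/2 of the input in all 7, where 31.2% of 19088 genes were. The median sorted library over the input was 5.94 for Igfbp3 (5.30 to 6.68), 2.47 for Igfbp5 (2.41 to 2.53), 1.57 for Igf2r, 1.55 for Igfbp4 and 1.48 for Igfbp7. It was 0.962 for Igfbp6, 0.654 for Igfbp2, 0.554 for Igf1 and 0.497 for Igf1r. With TMM factors the direction turned for Igf1, Igfbp2 and Igfbp6, and 7 of 7 sorted libraries were more than 2-fold above the input for Igfbp5, where 2.76% of all genes were. Ptprc, which encodes CD45, stood at 13.5 RPKM in the input and from 1.69 in cluster 3 to 9.26 in cluster 7 among the sorted libraries.

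Over the 7 sorted libraries, Pearson's r of log2(RPKM + 1) in the 36 pairs of these genes ran from -0.09 to 0.95 by total count. With TMM factors it ran from -0.56 to 0.96. The median r by total count was 0.61, and 0.37 without the cluster 6 library. All points share library depth and composition, so these values are descriptions. Igf1, Igfbp2, Igfbp3 and Igfbp4 went together with r from 0.82 to 0.95, and Igfbp5, Igfbp6 and Igfbp7 with r from 0.78 to 0.91. With cluster 6 included these were not separate sets. Igfbp4 had r of 0.82, 0.82 and 0.84 with Igfbp5, Igfbp6 and Igfbp7, and Igf1 had r of 0.78 with Igfbp6. Leaving out cluster 6 changed these values to 0.62, 0.48, 0.81 and 0.12. The lowest r between the sets was then -0.07, for Igfbp2 with Igfbp6. Without cluster 6 the ranges within the sets were 0.68 to 0.95 and 0.68 to 0.86. Between the adjacent genes Igfbp2 and Igfbp5 r was 0.59, and 0.29 without cluster 6.

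Markers of reticular cells and fibroblast progenitors varied with Igf1 and the 6 binding protein genes, with lower r for the receptor genes. Igf1r had r of -0.10 with reticular and 0.09 with fibroblast progenitor markers, and Igf2r had 0.11 and 0.0064 (-0.08 and -0.41 with TMM factors). No marker of these lists was at 0 in any library. The 6 markers of CXCL12-abundant reticular cells summed to 61.4 RPKM in c1, 45.9 in c2, 44.5 in c3, 209 in c4, 72.9 in c5, 32.4 in c6, 90.5 in c7 and 47.1 in the input. In clusters 1, 3, 4, 5 and 7, 5 of these 6 exceeded 2 RPKM, and in clusters 2 and 6 it was 3 of 6. Among the sorted libraries Cxcl12 and Adipoq were highest in cluster 4, at 139 and 29.6 RPKM. The other listed markers were highest in clusters 1, 2 or 7. Foxc1 led the list in cluster 6 at 22.6 RPKM and was at 23.0 in cluster 4. Mean log2(RPKM + 1) of this list had r of 0.94 with Igfbp4, 0.93 with Igfbp3, 0.83 with Igf1 and 0.80 with Igfbp2 over the 7 libraries. With Igfbp7, Igfbp6 and Igfbp5 it was 0.78, 0.62 and 0.59.

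The 6 fibroblast progenitor markers, led by Ly6a outside cluster 6, summed to 983 RPKM in c1, 127 in c2, 1244 in c3, 637 in c4, 128 in c5, 17.7 in c6, 389 in c7 and 697 in the input. In cluster 6 only 2 of the 6 exceeded 2 RPKM. Their mean had r of 0.98 with Igfbp5, 0.96 with Igfbp6 and 0.84 with Igfbp7. With Igfbp4, Igf1, Igfbp3 and Igfbp2 it was 0.81, 0.74, 0.63 and 0.54. Cluster 6 had the lowest sum of both the reticular and the fibroblast progenitor markers, and r without it was not computed for the marker lists. Sca-1, the product of Ly6a, was itself a gate of clusters 1, 6 and 7.

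The 6 osteoblast markers ran the other way, with 30627 RPKM in c6, 21386 in c3, 10385 in c5, 7482 in c2, 4460 in c1, 3724 in c7, 2918 in c4 and 905 in the input. All 6 exceeded 2 RPKM in each sorted library, led by Col1a1 in cluster 6 and by Bglap in clusters 3 and 5. Their sum was lowest in cluster 4 among the sorted libraries, but their mean log2(RPKM + 1) was lowest in cluster 1. It was 5.95 there, against 6.53 in cluster 4 and 9.37 in cluster 6. This mean had r of -0.95 with Igfbp2, -0.95 with Igf1, -0.88 with Igfbp4 and -0.86 with Igfbp3. The value of r was -0.76, -0.71 and -0.70 with Igfbp5, Igfbp6 and Igfbp7, and -0.34 and -0.21 with Igf2r and Igf1r. Cluster 3 combined a high osteoblast sum, of which Bglap gave 14020 RPKM, with high Igfbp5 and Igfbp6 and low Igf1, Igfbp2 and Igfbp3. Runx2 of the osteoblast list was not high there, at 4.37 RPKM against 8.24 in cluster 6 and 11.1 in cluster 2. The part of cell mixture in these relations was not tested.

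Markers of other cells were also present. The 6 pericyte and smooth muscle markers summed to between 27.1 RPKM in cluster 5 and 105 in cluster 7, led there by Acta2. By total count their mean had r of 0.75 with Igf1 and from 0.56 to 0.71 with the 6 binding protein genes. With Igf2r and Igf1r it was 0.60 and 0.40, but 0.29 and 0.0052 with TMM factors. The 6 endothelial markers summed to between 2.64 in cluster 6 and 11.6 in cluster 1, led there by Tek. The 6 macrophage markers lay between 15.3 in cluster 3 and 75.7 in cluster 7 with 90.5 in the input, led by Cd68 in cluster 7. The 6 B lineage markers lay between 45.3 in cluster 3 and 111 in cluster 7 with 250.4 in the input, and their mean had r of 0.82 with Igf2r. The 4 matched erythroid markers, led by Hba-a1, were at 43223 in cluster 5 and 841 in cluster 6 with 383 in the input. By total count their mean had r from -0.39 with Igf2r to 0.39 with Igf1 over the 9 genes.

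**Figure D4:**
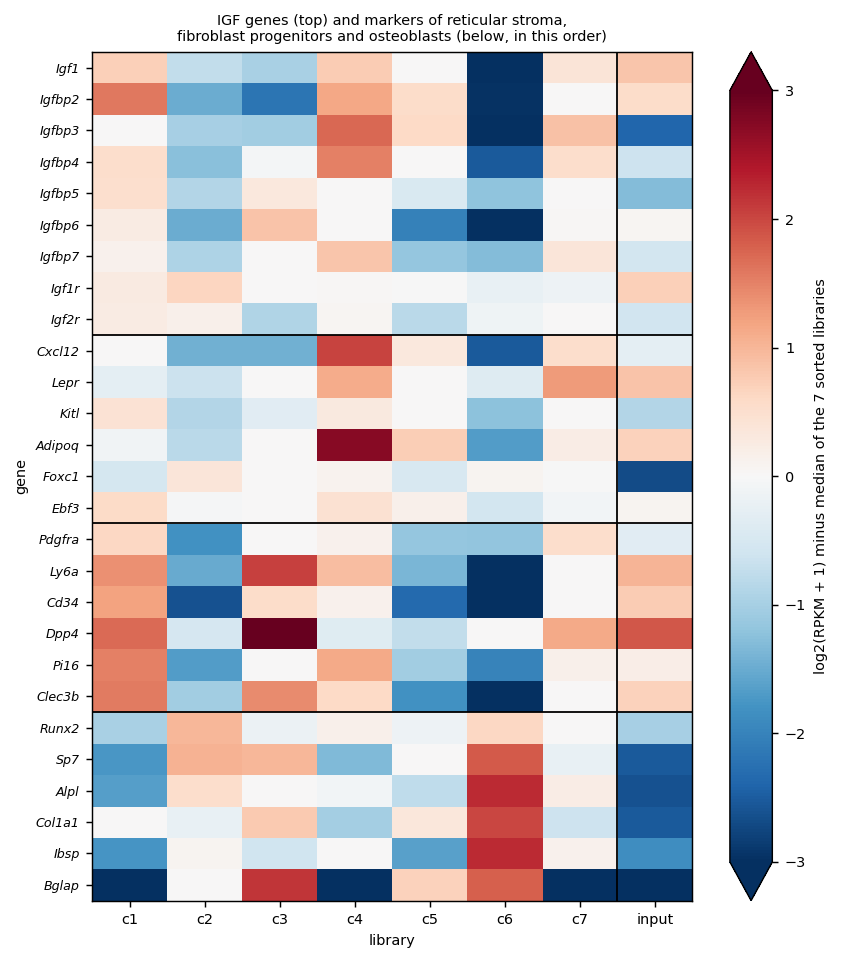
Heat map of log2(RPKM + 1) minus the median of the 7 sorted libraries, with genes in rows and libraries in columns (c1 to c7 for clusters 1 to 7, then input). The 9 IGF genes are above the first line, followed by 6 markers each of reticular stroma, fibroblast progenitors and osteoblasts. In c6 Igf1, Igfbp3 and Igfbp6 are blue while the osteoblast markers are red.

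The genes whose profile was most like each IGF gene were taken from 7453 genes with a range above 2-fold. Tnmd, a tendon glycoprotein gene, was nearest to Igf1 with r = 0.99 over 7 libraries, at 229 RPKM in cluster 1 and 5.34 in cluster 6, followed by Ptx4 and Map1b. Nearest to Igfbp2 were Aard (r = 0.98) and Sult5a1 (r = 0.97). Nearest to Igfbp3 were Col8a1 (r = 0.98), Fat4 and Sfrp2, which encodes a secreted Wnt modulator and ran from 299 RPKM in cluster 4 to 1.41 in cluster 6. For Igfbp4 they were Gas6 and Ptx3, each with r = 0.99, and Rasl11b. Gas6, a ligand of the TAM receptors, ran from 308 RPKM in cluster 4 to 16.9 in cluster 6.

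Igfbp5 was most like Ebf2, a transcription factor gene with r = 0.99 that reached 14.5 RPKM in cluster 1 and 0.0365 in cluster 6, and then Rab7b and Sema3f. Igfbp6 was most like Foxp1 (r = 0.995), Abi3bp and Clec3b, of which Clec3b is also in the fibroblast progenitor list. Igfbp7 was most like Arsa, a lysosomal sulfatase gene, Prkar1b and Slc41a3. The receptor genes had other neighbours. Thoc7, Aimp1 and Snrpd1, which serve RNA export, tRNA charging and splicing, were nearest to Igf1r, and Slc43a3, Arap1 and Nrep to Igf2r. For Igf2r only 4 genes had r above 0.95, against 85 for Igfbp5 and 78 for Igf1r, and with 7 points high values are frequent.

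The other 50 genes of the pathway varied about as much as genes in general. Of the 37 that passed the filter, 25 exceeded 2-fold between the highest and the lowest library against 70.6% of all genes (19 against 56.8% with TMM factors), and 3, Igf2, Stc2 and Grb14, exceeded 4-fold against 15.7%. None was specific to or depleted in a library. The minimum lay in cluster 5 for 22 of them, against 46.3% of all genes, and for 10 with TMM factors, against 26.4%. By total count 4 genes of the 50 were below 1/2 of the input in all 7 sorted libraries (Ins1, Adam28, Tsc1 and Igf2bp3) against 31.2%. With TMM factors only Adam28 met this. None of the 9 IGF genes had its minimum in cluster 5 or lay so far below the input.

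Of the 6 genes in the ligand and ternary complex list only Igf2 passed the filter. Igfals, which encodes the acid-labile subunit of the serum complex, reached 0.655 RPKM in cluster 4, and Igfbp1 had at most 2 counts in a sorted library. Ins1 had 0 counts in all 7, which allows up to 3 counts per library as a one-sided 95% limit. The 2 receptor genes of the list did not pass either, and Insrr, which encodes the insulin receptor-related receptor, had at most 7 counts in a sorted library. The insulin receptor gene Insr was highest in cluster 4 at 1.63 RPKM and lowest in cluster 6 at 0.645, with 3.08 in the input.

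Among 7 genes for IGFBP proteases and their inhibitors, 5 passed the filter and 4 exceeded 2-fold, where 70.6% of all genes did. Htra1, a secreted serine protease gene, was the most abundant, with 180 RPKM in c1, 86.0 in c2, 297 in c3, 254 in c4, 79.7 in c5, 82.3 in c6, 289 in c7 and 162 in the input. It was high where Igfbp6 was high, in clusters 1, 3, 4 and 7. Stc2, an inhibitor of the PAPP-A proteases, was at 4.56 RPKM in cluster 2 and 3.48 in cluster 6 against 0.178 in cluster 3. Pappa2, a protease of Igfbp3 and Igfbp5 proteins, reached 2.02 RPKM in cluster 4 and 0.0609 in cluster 3.

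Of 24 adaptor and signalling genes, 22 passed the filter and 13 exceeded 2-fold against 70.6% of all genes (9 against 56.8% with TMM factors). Irs2, which encodes a docking protein of the receptor, reached the highest level of the list in any single sorted library. It was at 52.7 RPKM in c1, 21.1 in c2, 25.6 in c3, 68.4 in c4, 19.5 in c5, 16.6 in c6, 50.3 in c7 and 9.48 in the input. In clusters 2, 3 and 6 several genes of the list were above Irs2, among them Akt1 at 22.7, 45.9 and 30.3 RPKM. Akt1 was not the highest of the list in clusters 2 and 6. Clusters 4, 1 and 7 were the high libraries of Irs2, which by total count were also the 3 highest for Igf1. Grb14, an adaptor that inhibits insulin receptor signalling, was at 13.1 RPKM in cluster 2 and 10.4 in cluster 6 and at most 1.44 in the other sorted libraries, and with TMM factors cluster 6 was the higher of that pair. By total count Akt1 was the 1 gene of this list above the input by more than 2-fold in all 7 sorted libraries, against 0.728% of all genes, with 7.09 RPKM in the input and at least 16.3 in the sorted ones. With TMM factors Irs2, Grb10 and Foxo1 were so as well, 4 genes against 2.76%.

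All 8 genes of the growth hormone axis passed and 7 exceeded 2-fold against 70.6% of all genes (5 against 56.8% with TMM factors), none by 4-fold against 15.7%. The cytokine signalling inhibitor genes Socs3 and Socs1 had the widest ranges. Socs3, the most abundant, was at 431 RPKM in cluster 7 and 111 in cluster 5, and Socs1 at 68.2 in cluster 4 and 20.4 in cluster 6. Of the 3 genes for IGF2 mRNA-binding proteins, Igf2bp2 was the most abundant in the sorted libraries and alone passed the filter. It was at 2.36 RPKM in cluster 4 and 1.10 in cluster 2, while Igf2bp3 was at most 0.201 in a sorted library against 2.31 in the input.

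**Figure D5:**
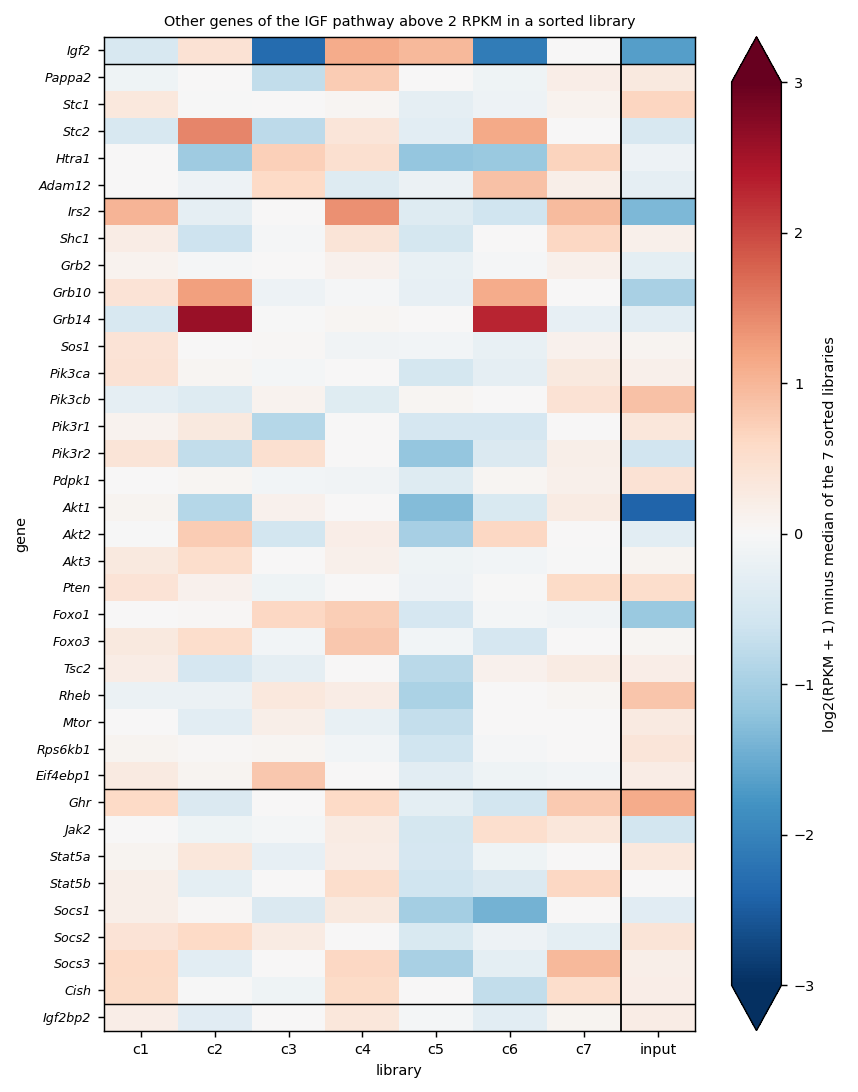
Heat map of log2(RPKM + 1) minus the median of the 7 sorted libraries for the 37 other pathway genes above 2 RPKM in a sorted library, with libraries in columns (c1 to c7 for clusters 1 to 7, then input) and lines between gene lists. Grb14 stands out in c2 and c6, Igf2 is low in c3 and c6, and most rows stay near white.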

How the data were processed

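RNA-seq was measured in 8 bone marrow samples, 1 library per population. The authors deposited whole-number read counts per Ensembl gene with exon positions and lengths, without normalization. According to the methods of the study, low-quality bases were trimmed and reads aligned with TopHat2 to mm9 in Partek Flow 2.2, whereas the coordinates of the counts were those of GRCm38, since 96.3% of 23312 symbols started within 10 kb of the RefSeq GRCm38.p6 position. The counting tool and strandedness are not given in the sources used here.

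RPKM was computed here from count, exon length and the total count on genes. Folds were ratios of RPKM + 1 (pseudocount 1), and genes above 2 RPKM in at least 1 sorted library were tested against the thresholds. Fold ratios given without the pseudocount have 95% exact binomial intervals, levels exact Poisson intervals and within-library shares intervals by the delta method, all for counting error only, since PCR copies were not separated from molecules. With 1 library per population no test between populations was possible. edgeR 4.0.16 and DESeq2 1.42.0 gave scaling factors only. A gene was specific to a library when above 2 RPKM and more than 2-fold each of the other 6, and depleted when below 1/2 of each.

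The genes and lists (6 pathway lists with 50 genes, 10 marker lists with 53 of 55 genes matched) were chosen with earlier results of these data known. The genes named are all 9 IGF genes and the 3 genes with the highest Pearson r to each (at least 50 counts in the highest library). Per list they are the gene with the highest level in a sorted library, the 2 with the widest range and any specific or depleted. Akt1, Foxo1, Grb10, Tsc1, Adam28, Ins1, Igfbp1, Pappa2 and the marker Runx2 fall outside this rule and were chosen after their values were seen. A gene that the rule also names is not reported here. The calls were tested on simulated counts. Alternatives were other scalings, pseudocount 0.1, other filters, omitted libraries and other measures. Scripts ran under R 4.3.3 and Python 3.11.15, with scipy 1.17.1, pandas 2.3.3, numpy 2.4.6 and matplotlib 3.10.9.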

Additional observations from a re-analysis of the deposited data

How the results depend on the processing

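No paired analysis was possible because there was a single library for each population and no test between populations was run. With the filter set to more than 2 RPKM in all 7 sorted libraries, genes above 2-fold fell to 5, above 4-fold to 3 and depleted to 2, since 4 of the 9 genes did not pass. Igfbp4 was specific to cluster 4 (1 gene) with TMM factors, DESeq2 factors or a pseudocount of 0.1. With that pseudocount all 9 genes exceeded 2-fold, and 5 were depleted because Igfbp2 joined the group. Without the cluster 6 library, an alternative chosen after seeing the data, 1 gene was depleted (Igfbp4, in cluster 2) and 1 lay above the input in all remaining libraries (Igfbp3). With TMM or DESeq2 factors the latter was 1 as well (Igfbp5). For the stricter filter, the pseudocount of 0.1 and the omission of cluster 6, no share over all genes was computed. The counts of genes at these settings therefore stand without a background. The log2 of the median sorted library over the input turned from -0.82 to 0.16 (TMM) and 0.0859 (DESeq2) for Igf1, from -0.56 to 0.0122 (TMM) for Igfbp2, and from -0.06 to 0.60 and 0.53 for Igfbp6. The log2 range of Igf1 was 4.48, and 1.74 without cluster 6, that of Igfbp3 5.66 and 2.77, that of Igfbp6 5.36 and 2.87, that of Igfbp4 4.03 and 2.78, and that of Igfbp2 4.56 and 3.77. The median over the genes was 2.01 without cluster 6, and 2.13 over the 5 that passed the stricter filter.

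As a share of Igfbp counts, not divided by length, the gene that led per length held 30.0% in c1, 36.7% in c2, 43.8% in c3, 39.2% in c4, 27.1% in c5, 49.8% in c6, 36.2% in c7 and 45.8% in the input, and by counts Igfbp5 led in cluster 5 with 33.6%. Without Igfbp7, the leading gene held 76.7%, 74.3%, 87.3%, 68.5%, 51.7%, 52.4% and 77.0% for clusters 1 to 7 in this order and 89.6% in the input. Of the 27 genes most like the 9, 17 were kept with TMM factors and 1 with Spearman's rho, which has few distinct values over 7 libraries. Of all values computed under alternatives, 111 stayed within the counting interval or, for counts of genes and their median, within 1.5 times, 74 moved further and 5 reversed. Among the 111 were 9 counts of genes that changed. Others of the 111 could not change. All 9 genes passed the filter, so leaving it out had no effect on them. Cluster 5 held no maximum or minimum of the 9 genes by total count, so their ranges without it were fixed. Levels that rest on few counts, such as 14 for Igfbp2 in cluster 6, are limited by depth.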

Other observations

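Some pathway genes at or near 0 in the sorted libraries had counts in the input library. Ins1, which encodes insulin, had 54 counts in the input (2.64 RPKM) and 0 in each sorted library. Igfbp1 had 20 counts in the input and at most 2 in a sorted library. Igf2bp3 had 380 counts in the input and at most 47 in a sorted library. The input library had 17570 genes above 2 RPKM, against 8685 to 10498 in the sorted libraries.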
